A study of Mus musculus with 12 samples.

Results

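The mRNAs described here encode subunits of the ATP-driven ion pumps that neurons use to move sodium, potassium and calcium. They are 7 genes, taken by symbol from the 55573 genes of the count table: the Na,K-ATPase beta subunits Atp1b1, Atp1b2 and Atp1b3, and the calcium pumps Atp2a2, Atp2b1, Atp2b2 and Atp2b4. All 7 were among the 17126 genes that passed the filter on low counts. The calcium pumps are the long members and the beta subunits the short ones.

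RNA was recovered from cultured hippocampal neurons of C57BL/6 mice, an inbred wild-type strain, by RNA immunoprecipitation (RIP) with an antibody against endogenous YTHDF1, YTHDF2 or YTHDF3, and sequenced beside Input, the total RNA of the lysate without antibody. Each of these 4 groups held 3 replicates, 12 libraries in all. No group carried a transgene, knockout or drug that set it apart. The neurons came from pooled newborn pups of single litters, of both sexes, and were harvested after 14 days in culture. The data analysed here hold no pull-down with a non-specific antibody, so enrichment means only a higher share of RNA in a RIP than in Input. Total counts ran from 9092494 to 13833973 in Input, from 10037804 to 38909592 in YTHDF1 RIP, from 6020072 to 9259893 in YTHDF2 RIP and from 21395271 to 22400602 in YTHDF3 RIP. All 7 neuronal marker genes were above 0 in every group. Astrocyte markers, 6 of 6 above 0, summed to between 292 and 2645 CPM in Input (counts scaled to a common TMM-adjusted library size), 302 and 1196 in YTHDF1 RIP, 660 and 1313 in YTHDF2 RIP, and 196 and 1487 in YTHDF3 RIP. Microglial markers summed to at most 6.00 CPM in any library. Neuronal markers summed to between 2600 and 4061 CPM in Input, 4294 and 7164 in YTHDF1 RIP, 1784 and 2842 in YTHDF2 RIP, and 2977 and 5879 in YTHDF3 RIP. Markers of the oligodendrocyte lineage summed to between 50.6 and 333 CPM in Input and 278 and 1323 in YTHDF1 RIP, with the highest value in replicate 1, and endothelial markers to between 3.32 and 8.91 and between 14.8 and 19.1 CPM.

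The Na,K-ATPase exports sodium and imports potassium, and so restores the gradients that action potentials and synaptic currents run down. Its catalytic subunit binds ATP and carries the ions, while the smaller glycosylated beta subunit is needed for the enzyme to fold and reach the membrane. Calcium is cleared from the cytosol by related pumps, the SERCA pumps of the endoplasmic reticulum and the PMCA pumps of the plasma membrane, which are single large catalytic chains with no beta subunit of this family. YTHDF1, YTHDF2 and YTHDF3 are cytoplasmic proteins whose YTH domain binds N6-methyladenosine (m6A) in mRNA.

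On GRCm38, the build of the files, Atp1b1 (ENSMUSG00000026576) lies at chr1:164437109-164458355 on the minus strand with 3.08 kb of annotated exon. Atp1b2 (ENSMUSG00000041329) lies at chr11:69599736-69605942, minus strand, with 4.08 kb. Atp1b3 (ENSMUSG00000032412) lies at chr9:96332655-96364442, minus strand, with 2.39 kb. The beta subunits thus sat in the lower or middle part of the exonic lengths of all genes tested, protein-coding or not, at percentiles 39.4, 52.3 and 29.4.

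Among the calcium pumps, Atp2a2 (ENSMUSG00000029467, the gene of SERCA2) lies at chr5:122453513-122502225, minus strand, with 6.08 kb of exon. Atp2b1 (ENSMUSG00000019943, PMCA1) lies at chr10:98914406-99026143, plus strand, with 15.2 kb. Atp2b2 (ENSMUSG00000030302, PMCA2) lies at chr6:113743831-114042613, minus strand, with 12.6 kb. Atp2b4 (ENSMUSG00000026463, PMCA4) lies at chr1:133699457-133801041, minus strand, with 12.2 kb. Their length percentiles were 73.1, 97.7, 95.7 and 95.2.

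In the representative transcripts, those with the longest coding sequence, the beta subunits encode proteins of 304, 290 and 278 residues and the calcium pumps proteins of 1044, 1220, 1243 and 1205 residues. The catalytic chains share the phosphorylation motif of P-type ATPases, whose aspartate takes the phosphate from ATP in each transport cycle. Searched for in frame by its codons, it was found in all 4 calcium pumps and in 33 of 13368 coding transcripts, and in none of the beta subunits. Its codons are shown because they mark which members are catalytic, with the codons of the motif in capitals.
Atp2a2, chr5:122469374-122469400, minus strand: tgctcaGATAAGACAGGCACActtacc
Atp2b1, chr10:98999811-98999837, plus strand: tgttcaGATAAAACAGGAACCctgacg
Atp2b2, chr6:113789897-113789923, minus strand: tgctcaGACAAGACAGGAACGctgacc
Atp2b4, chr1:133731807-133731833, minus strand: tgctccGATAAGACAGGCACActgacc

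The letters GGACT, a favoured context of m6A, were counted on the transcript strand of the same transcripts. They occurred 1 time in Atp1b1, 3 times in Atp1b2, 1 time in Atp1b3, 1 time in Atp2a2, 4 times in Atp2b1, 6 times in Atp2b2 and 11 times in Atp2b4. Per kb of transcript the counts were 0.388, 1.06, 0.502, 0.223, 0.561, 1.31 and 0.938 in the same order, against a median of 1.04 and quartiles of 0.636 and 1.52 over the 13368 coding transcripts of tested genes, of which 91.9% held at least 1. The density therefore did not separate the calcium pumps from the beta subunits. The occurrence nearest to the stop codon is shown for each member with 12 bases on either side and the match in capitals, since m6A is known to cluster near stop codons. A match is a string of letters, not a measured methylation site.
Atp1b1, chr1:164441636-164443217 across an exon junction, minus strand, coding: catgattttcgaGGACTgtggcaatgttc
Atp1b2, chr11:69600967-69600995, minus strand, 3' UTR: ctcagcgacagaGGACTtgcctagcaagc
Atp1b3, chr9:96343360-96345777 across an exon junction, minus strand, coding: attcctagtccaGGACTtatggtttttcc
Atp2a2, chr5:122460113-122460141, minus strand, coding: ccatgggctcagGGACTgcagtggctaag
Atp2b1, chr10:99023208-99023236, plus strand, 3' UTR: attcttgtctctGGACTtcaacagaagac
Atp2b2, chr6:113760840-113762777 across an exon junction, minus strand, coding: ctgcattacacaGGACTcccctctcaagg
Atp2b4, chr1:133706747-133706775, minus strand, coding: taacaacgccgtGGACTgccaccaagtgc
The match lay 103 bases after the start of the stop codon in Atp2b1 and 267 bases after it in Atp1b2. In Atp2b4 it lay 70 bases before the stop codon, and in Atp1b1, Atp1b3, Atp2a2 and Atp2b2 it lay 541, 597, 968 and 1027 bases before it.

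Levels in Input were compared as CPM per kb of all annotated exon of a gene. This length exceeds that of the representative transcript unevenly. It was 12.6 against 4.59 kb for Atp2b2, 15.2 against 7.13 kb for Atp2b1 and 12.2 against 11.7 kb for Atp2b4. The order below is that of this measure, and the order by transcript length was not computed. Atp1b1, the main beta subunit of neurons, was the most abundant at 209 ± 68.6 (SD, n = 3). Atp1b2, a beta subunit also known as an adhesion molecule on glia, followed at 56.6 ± 17.6, and its range overlapped that of Atp2a2 at 45.7 ± 8.80. On this measure the plasma membrane pumps were lower, with Atp2b1 at 26.4 ± 4.02 and Atp2b2 at 20.1 ± 7.21, and these 2 overlapped as well. Atp1b3 at 13.0 ± 1.41 overlapped Atp2b2, and Atp2b4 was lowest at 8.70 ± 2.68. In YTHDF1 RIP the order of the same measure was different. Atp1b1 stood at 270 ± 101 and the calcium pumps Atp2a2, Atp2b2 and Atp2b1 came next at 146 ± 54.5, 113 ± 56.5 and 83.9 ± 18.6, ahead of Atp1b2 at 25.6 ± 8.39.

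The beta subunits were set against Input gene by gene. Here and below, levels are CPM and differences are log2 fold changes from edgeR's quasi-likelihood test, with p-values adjusted by Benjamini-Hochberg over the 17126 genes. A gene was called enriched or depleted at a log2 fold change of at least 0.32 in either direction and an adjusted p of at most 0.05. Atp1b1 had 845, 665 and 424 CPM in the 3 Input replicates. It had 640, 663 and 1191 CPM in YTHDF1 RIP, 842, 547 and 1072 in YTHDF2 RIP and 887, 690 and 431 in YTHDF3 RIP. The groups overlapped throughout. Its log2 fold change was 0.37 ± 0.37 (SE) in YTHDF1 RIP (adjusted p = 0.429, edgeR), 0.35 ± 0.37 in YTHDF2 RIP (adjusted p = 0.495, edgeR) and 0.05 ± 0.37 in YTHDF3 RIP (adjusted p = 0.923, edgeR). The 95% intervals were -0.45 to 1.18, -0.47 to 1.16 and -0.76 to 0.87. With 3 replicates, the data are compatible with any change inside these bounds.

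Atp1b2 had 172, 311 and 210 CPM in Input and 75.4, 95.7 and 142 CPM in YTHDF1 RIP. All YTHDF1 libraries lay under all Input libraries. Its log2 fold change there was -1.14 ± 0.36 (adjusted p = 0.0179, edgeR), which met the call as depleted. The call was lost without Input replicate 2, or without YTHDF1 RIP replicate 1, with adjusted p up to 0.0803 and a log2 fold change of -0.87 at the nearest to 0. Atp1b2 had 124, 107 and 186 CPM in YTHDF2 RIP and 103, 206 and 221 in YTHDF3 RIP, overlapping Input in both, with log2 fold changes of -0.74 ± 0.35 (adjusted p = 0.128, edgeR) and -0.39 ± 0.35 (adjusted p = 0.410, edgeR). The astrocyte markers summed to 292 CPM in Input replicate 1, 302 in YTHDF1 RIP replicate 1 and 196 in YTHDF3 RIP replicate 1, each the lowest of its group, and these were also the libraries with the least Atp1b2 in those 3 groups. In YTHDF2 RIP the astrocyte sum was lowest in replicate 1, at 660, and Atp1b2 in replicate 2. The highest values matched less. The astrocyte sum was highest in Input replicate 3 (2645 CPM) and YTHDF1 RIP replicate 2 (1196 CPM), but Atp1b2 in Input replicate 2 and YTHDF1 RIP replicate 3. In YTHDF3 RIP both were highest in replicate 3. The part of astrocyte RNA in the Atp1b2 values was not tested. In such bulk RNA, fewer cells of a type and less of an mRNA in each cell cannot be told apart.

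Atp1b3, a beta subunit of many tissues, was low and steady, at 29.1, 29.2 and 35.0 CPM in Input. It had 14.9, 22.3 and 20.9 CPM in YTHDF1 RIP, all under the Input values, and was called depleted with a log2 fold change of -0.68 ± 0.18 (adjusted p = 0.00820, edgeR). In YTHDF2 RIP it had 25.5, 29.6 and 25.5 CPM, overlapping Input, with a log2 fold change of -0.21 ± 0.18 (adjusted p = 0.389, edgeR). In YTHDF3 RIP it had 24.7, 24.2 and 27.6 CPM, all under Input, but its log2 fold change of -0.29 ± 0.18 did not pass (adjusted p = 0.234, edgeR). Of its 50-base strings, 11.7% also occur in transcripts of other genes, and the authors counted every alignment of a read, so its level is less certain than those of Atp1b1 and Atp1b2, which share none. The same limit holds for the calcium pumps at smaller shares, 4.58% in Atp2a2, 2.13% in Atp2b1, 0.154% in Atp2b2 and 1.03% in Atp2b4.

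**Figure D1:**
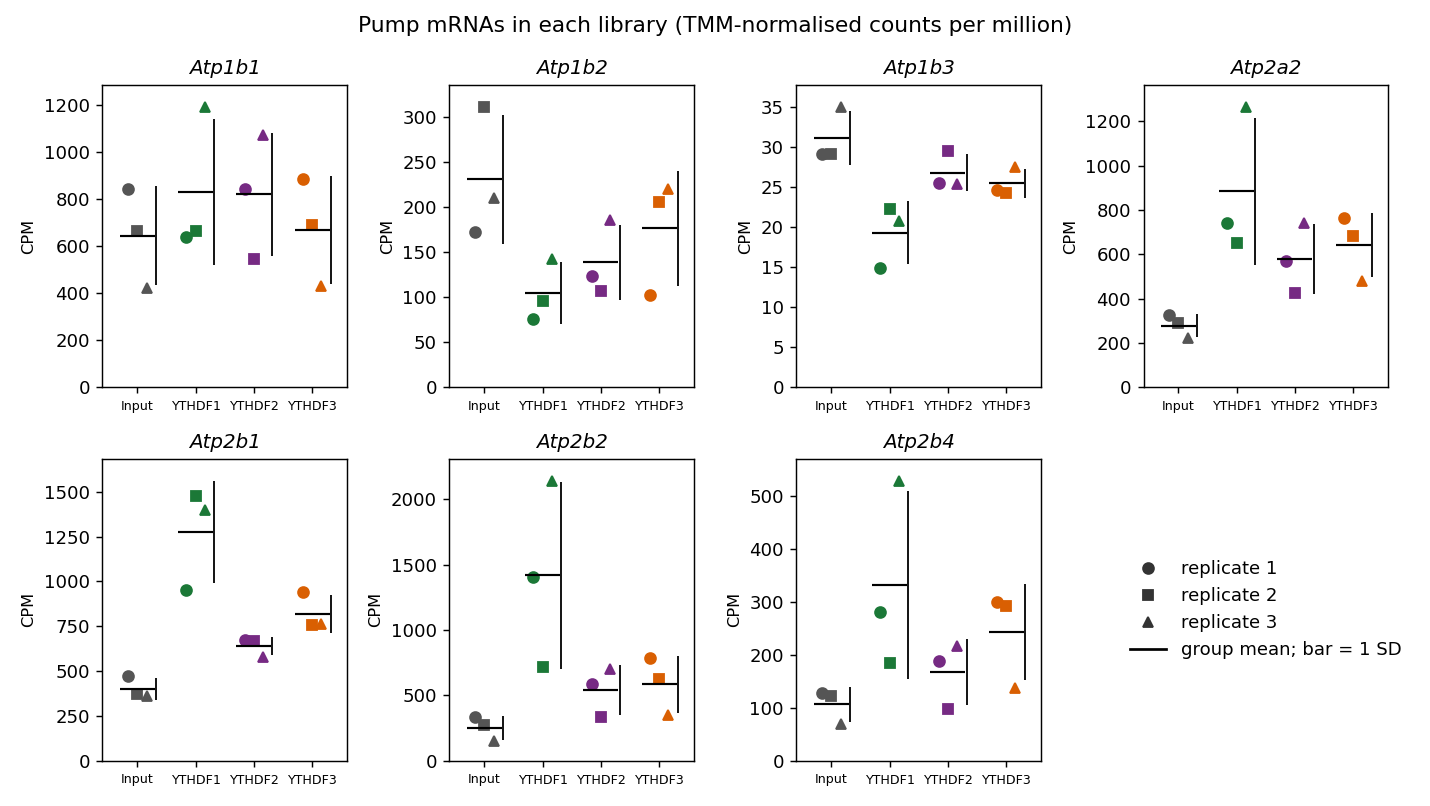
Level of each pump mRNA in the 12 libraries, in TMM-normalised CPM on a linear axis from 0, by group (Input and the YTHDF1, YTHDF2 and YTHDF3 RIPs). Symbols mark the replicate number, horizontal lines the group mean and vertical bars 1 SD. All YTHDF1 libraries lie above Input for the 4 Atp2 genes and below it for Atp1b2 and Atp1b3. How many of all genes are separated in this way was not counted.

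The calcium pumps went the other way. In YTHDF1 RIP all 4 were called enriched, with every RIP library above every Input library. How many of all genes tested had 2 groups without overlap was not counted, here or below. Such a gap therefore does not set a gene apart. The summed neuronal and endothelial markers were also higher in each YTHDF1 library than in any Input library. The neuronal marker Map2 rose from a mean of 1510 to 4228 CPM and the endothelial marker Kdr from 4.93 to 15.8. Of the other neuronal markers, Rbfox3, Syt1 and Gad1 had a higher mean in YTHDF1 RIP and Tubb3, Snap25 and Slc17a7 a lower one. Of the other endothelial markers, both low, Cldn5 was higher and Pecam1 lower. The part of these markers in the results was not tested. Of all genes tested, 27.2% were called enriched and 25.8% depleted in this comparison. Atp2a2 refills the endoplasmic reticulum with calcium. It had 325, 289 and 220 CPM in Input and 740, 651 and 1264 CPM in YTHDF1 RIP, a log2 fold change of 1.67 ± 0.31 (adjusted p = 0.000993, edgeR). Atp2b1, the most widely expressed plasma membrane calcium pump, had 472, 371 and 362 CPM in Input and 952, 1477 and 1400 CPM in YTHDF1 RIP. Its log2 fold change was 1.67 ± 0.22 (adjusted p = 9.92e-05, edgeR), the smallest SE among the pumps.

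Atp2b2, a fast plasma membrane pump of neurons and hair cells, had the largest change of the 7. It had 333, 271 and 154 CPM in Input and 1403, 714 and 2140 CPM in YTHDF1 RIP, a log2 fold change of 2.49 ± 0.47 (adjusted p = 0.00107, edgeR) or 5.61-fold. Its replicates spread widely, and the lowest RIP library was still above the highest Input library. Atp2b4, a slower plasma membrane pump, had 128, 122 and 68.9 CPM in Input and 282, 185 and 528 CPM in YTHDF1 RIP, a log2 fold change of 1.64 ± 0.45 (adjusted p = 0.00981, edgeR). Without Input replicate 3, where it was lowest, the change was 1.13 and the call was lost (adjusted p = 0.0513, edgeR). With only these 2 groups fitted and the replicate number as a block, Atp2b4 (1.42, adjusted p = 0.0790, edgeR) and Atp1b3 (-0.81, adjusted p = 0.0713, edgeR) also missed the threshold. Same-numbered YTHDF1 RIP and Input libraries did not vary together, however (correlations -0.34 to 0.06), so this block may pair unlike libraries. Atp1b3 missed it without the filter on low counts as well (-0.72, adjusted p = 0.0565, edgeR).

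In YTHDF2 RIP the same pumps stood nearer to Input. Atp2a2 had 569, 426 and 743 CPM, all above Input, with a log2 fold change of 1.06 ± 0.31 (adjusted p = 0.0205, edgeR). Atp2b1 had 674, 668 and 582 CPM, also all above Input, with 0.68 ± 0.21 (adjusted p = 0.0302, edgeR). These were the 2 members called enriched of 7, where 15.7% of all genes were enriched and 19% depleted. Atp2b2 had 590, 332 and 702 CPM, and its replicate 2 fell just under the highest Input library, with a log2 fold change of 1.097 ± 0.45 that did not pass (adjusted p = 0.0806, edgeR). Atp2b4 had 188, 97.2 and 216 CPM, overlapping Input, with 0.65 ± 0.44 (adjusted p = 0.279, edgeR). No beta subunit was called there or in YTHDF3 RIP, nor by DESeq2, and 0 of 3 had an unadjusted p under 0.05 in edgeR. Without the filter on low counts, however, Atp1b2 was called depleted in YTHDF2 RIP, at -0.84 (adjusted p = 0.0357, edgeR). The calls of the pumps rested on few libraries. Atp2a2 was lost without Input replicate 2, Input replicate 3 or YTHDF2 RIP replicate 3 (adjusted p up to 0.0821), and Atp2b1 without Input replicate 2, Input replicate 3, YTHDF2 RIP replicate 1 or YTHDF2 RIP replicate 2 (up to 0.1001). With the replicate number as a block in the 4-group fit Atp2b1 was lost as well (0.68, adjusted p = 0.0519, edgeR), as it was with the block in a fit of only these 2 groups, with TMM factors taken before the filter, and without the filter (adjusted p of 0.0593, 0.0994 and 0.323). Here too the block may pair unlike libraries (correlations with the same-numbered Input of -0.33 to 0.19). Atp2b2 was gained without YTHDF1 RIP replicate 2, at 1.07 and an adjusted p of 0.0468 (edgeR), and also without the filter on low counts, with only these 2 groups fitted, and in DESeq2 (adjusted p of 0.0189, 0.0426 and 0.0474).

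In YTHDF3 RIP Atp2a2 had 763, 681 and 481 CPM and Atp2b1 had 943, 756 and 764 CPM, all above Input. Their log2 fold changes were 1.21 ± 0.31 (adjusted p = 0.00908, edgeR) and 1.03 ± 0.22 (adjusted p = 0.00287, edgeR), and both were called enriched, against 16.4% of all genes enriched and 23% depleted. Atp2b2 had 783, 625 and 349 CPM and Atp2b4 had 299, 293 and 138 CPM. These too lay above Input in every library, a separation not counted over all genes. Their log2 fold changes of 1.21 ± 0.45 (adjusted p = 0.0524, edgeR) and 1.19 ± 0.45 (adjusted p = 0.0525, edgeR) narrowly missed the threshold. Both passed when any of YTHDF1 RIP replicate 2, YTHDF1 RIP replicate 3, YTHDF2 RIP replicate 2 or YTHDF3 RIP replicate 3 was left out (adjusted p down to 0.0226 and 0.0256), and both passed in DESeq2.

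For YTHDF3 the libraries of the same replicate number varied together. The ratio to the Input library of the same number was 2.35, 2.30 and 2.26 for Atp2b2 in replicates 1, 2 and 3, although its CPM in YTHDF3 RIP ranged more than 2-fold. The ratios were 2.33, 2.39 and 2.01 for Atp2b4, 2.35, 2.36 and 2.19 for Atp2a2, and 1.999, 2.04 and 2.11 for Atp2b1. The beta subunits were as tight at other values, with 1.05, 1.04 and 1.02 for Atp1b1 and 0.848, 0.830 and 0.788 for Atp1b3. Atp1b2 was the exception, at 0.596, 0.662 and 1.05. Across all tested genes, deviations from the group means correlated at 0.825, 0.522 and 0.807 between YTHDF3 RIP and Input of the same number. With only these 2 groups and the replicate number as a block, all 4 calcium pumps were enriched, Atp2b2 by 1.26 ± 0.10 (adjusted p = 6.56e-11, edgeR) and Atp2b4 by 1.22 ± 0.10 (adjusted p = 8.42e-11, edgeR). Atp1b2 was then depleted by a fitted -0.36 ± 0.13 (adjusted p = 0.0150, edgeR). That fit called 36.3% of all genes enriched and 32.2% depleted, so a call in it sets a gene little apart. In the 4-group fit with the same block, Atp2b2 (1.21, adjusted p = 0.0594, edgeR) and Atp2b4 (1.195, adjusted p = 0.0701, edgeR) still missed the threshold. For YTHDF1 and YTHDF2 RIP the deviations correlated with those of the same-numbered Input at -0.34 to 0.19, so these libraries did not vary with that Input and the number may not mark a shared lysate. With that limit, the ratios to the same-numbered Input were wider, at 4.21, 2.63 and 13.9 for Atp2b2 in YTHDF1 RIP and 1.77, 1.22 and 4.55 in YTHDF2 RIP.

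**Figure D2:**
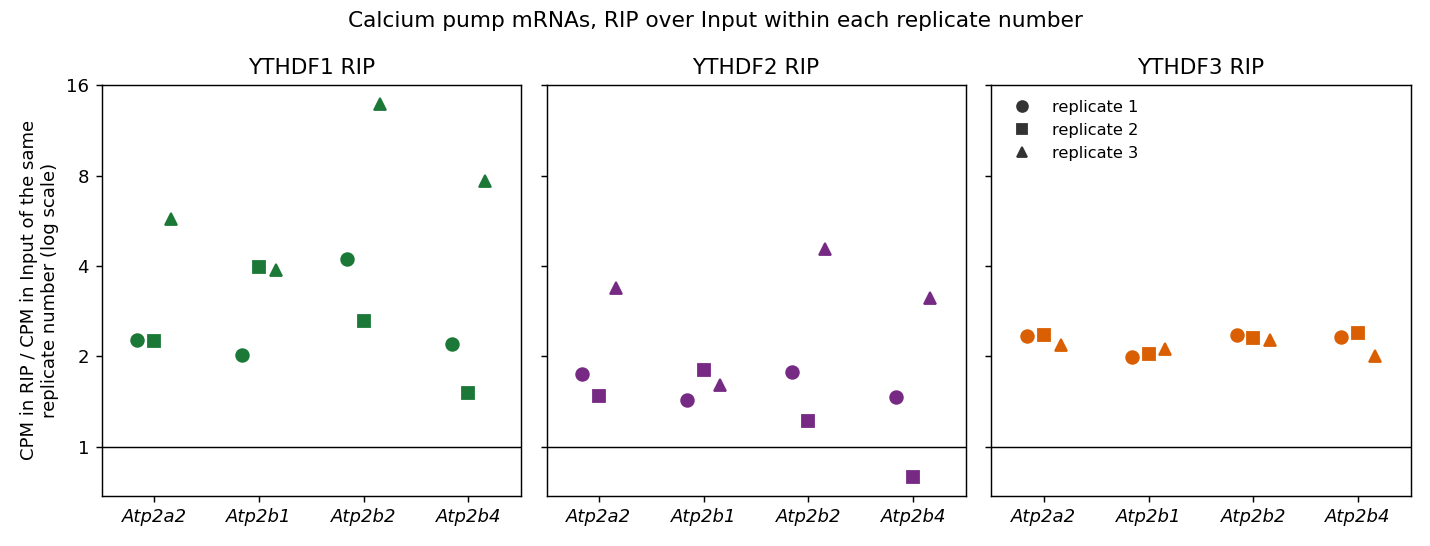
Ratio of CPM in each RIP to CPM in the Input library of the same replicate number for the 4 calcium pumps, on a log axis with 1 as a line. Symbols mark the replicate number. The YTHDF3 ratios fall between 1.999 and 2.39, while those of YTHDF1 spread from 1.51 to 13.9 and those of YTHDF2 from 0.794 to 4.55, where same-numbered libraries did not vary together.

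**Figure D3:**
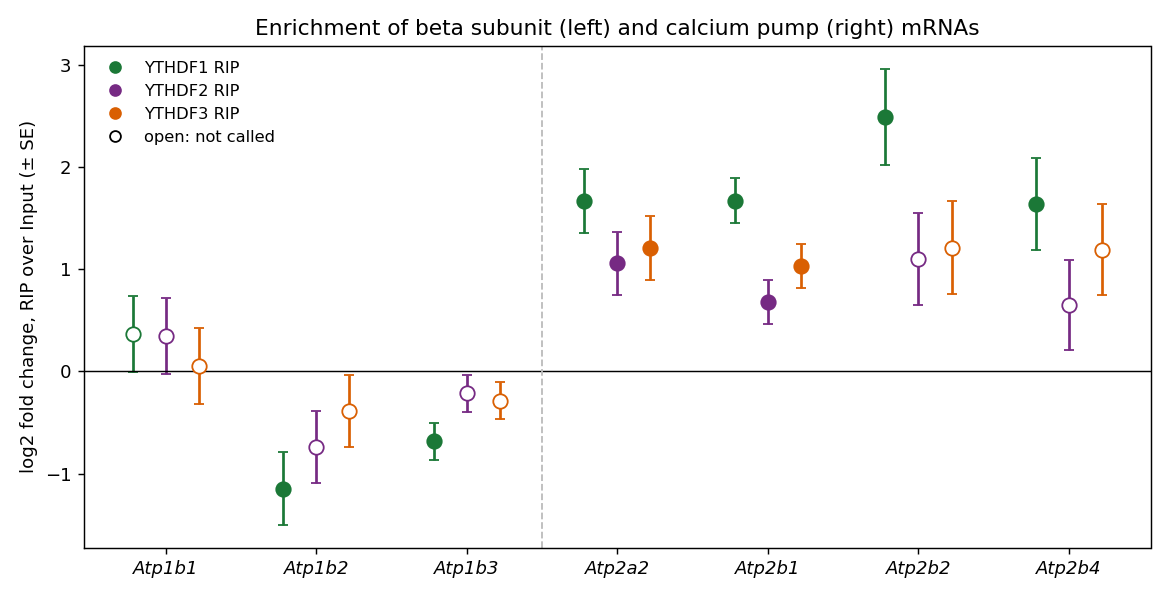
Log2 fold change of each member over Input with its SE from edgeR (n = 3 libraries a group), coloured by RIP. Filled points were called enriched or depleted, open points were not. Calcium pump values run from 0.65 to 2.49 and beta subunit values from -1.14 to 0.37.

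The contrast of long and short members was described by the mean log2 fold change of the 4 calcium pumps minus that of the 3 beta subunits. It was 2.35 in YTHDF1 RIP, 1.07 in YTHDF2 RIP and 1.37 in YTHDF3 RIP. In single libraries set against the mean of Input, the same difference ran from 1.92 to 2.53, from 0.88 to 1.22 and from 0.92 to 1.80, while the Input libraries themselves lay between -0.26 and 0.33. Each RIP library thus had a wider gap between pumps and beta subunits than any Input library. No test was made of this score, since the members were chosen with results known. The median log2 fold change was 1.67, 0.87 and 1.199 for the pumps and -0.68, -0.21 and -0.29 for the beta subunits in YTHDF1, YTHDF2 and YTHDF3 RIP, against 0.02, 0.02 and 0.05 for all genes tested.

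The RIPs as a whole held more of genes with long exonic length, and the members followed this in part. This length sums all annotated exons of a gene and exceeds that of a single transcript. The representative transcripts of Atp1b2, Atp1b3, Atp2b1, Atp2b2 and Atp2b4 have 2.84, 1.99, 7.13, 4.59 and 11.7 kb, and by transcript length these 5 genes would fall in shorter classes, while Atp1b1 and Atp2a2 would keep theirs. Among protein-coding genes, the median log2 fold change in YTHDF1 RIP rose from -1.13 for genes under 2 kb of exon to 1.37 for those of 12 kb and over. In that longest class, which holds Atp2b1, Atp2b2 and Atp2b4, 70.7% of 853 genes were enriched in YTHDF1 RIP, 36.5% in YTHDF2 RIP and 50.5% in YTHDF3 RIP. Atp2b1 and Atp2b4 lay inside the middle 50% of their class in YTHDF1 RIP (0.65 to 1.98), and Atp2b2 lay above it. Atp2a2 falls in the class from 4 to 8 kb, where 32.9% of genes were enriched in YTHDF1 RIP and the upper quartiles were 0.97, 0.70 and 0.69 in the 3 RIPs. Its values of 1.67, 1.06 and 1.21 were above all of these. Atp1b2 belongs to the same class by its 4.08 kb and lay under the lower quartiles of -0.38, -0.32 and -0.19. It is at the edge of that class, however, and against the lower quartiles of the 2 to 4 kb class, -0.99, -0.75 and -0.88, it was lower in YTHDF1 RIP and inside the band in YTHDF2 and YTHDF3 RIP. Genes of 2 to 4 kb, the class of Atp1b1 and Atp1b3, had medians of -0.33, -0.16 and -0.24.

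**Figure D4:**
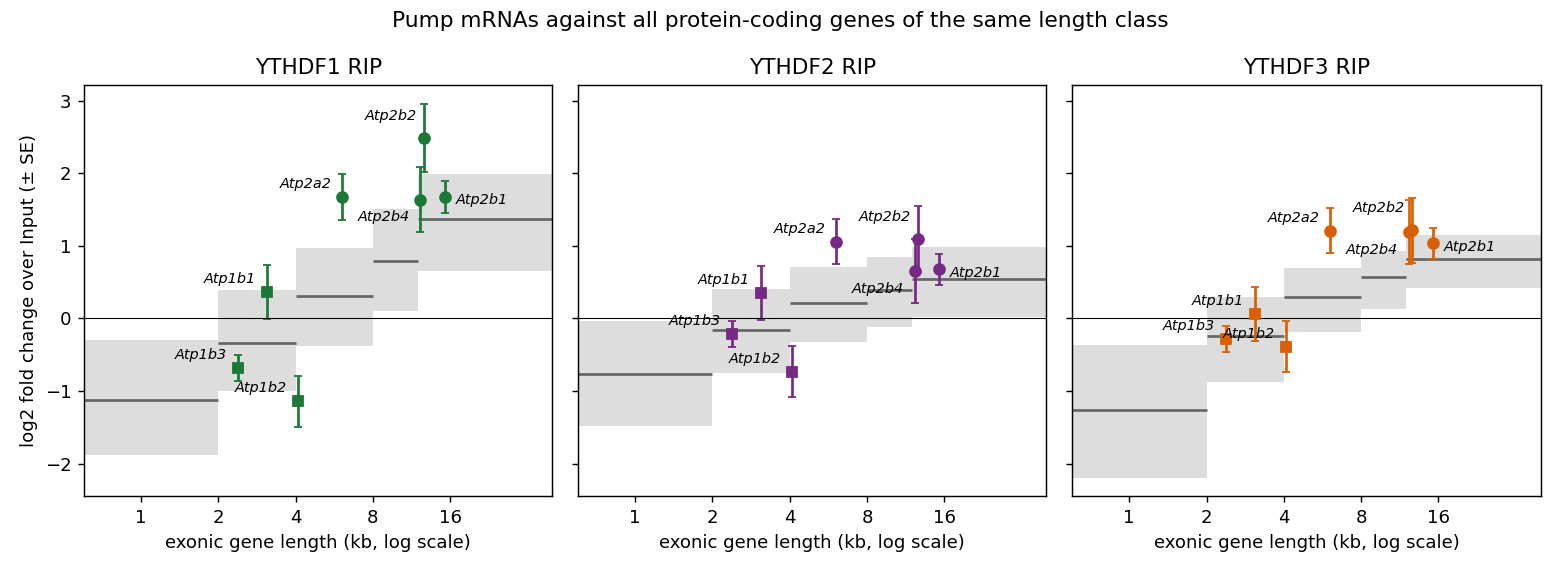
Log2 fold change over Input (± SE) against exonic gene length in kb on a log axis, in 1 panel for each RIP. Circles are calcium pumps and squares are beta subunits, and grey lines and bands give the median and quartiles of all protein-coding genes in 5 length classes. Atp2a2 lies above and Atp1b2, at the edge of the class, below the band of the class they share.

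When a smooth trend with length was removed from every library before the test, the gap between pumps and beta subunits narrowed to 1.24, 0.60 and 0.57. In YTHDF1 RIP Atp2a2 and Atp2b2 remained enriched, at 1.252 ± 0.31 (adjusted p = 0.00567, edgeR) and 1.38 ± 0.41 (adjusted p = 0.0165, edgeR), and Atp1b2 remained depleted at -1.19 ± 0.34 (adjusted p = 0.0126, edgeR). Atp2b1 then had 0.38 (adjusted p = 0.134, edgeR), Atp2b4 0.55 (adjusted p = 0.273, edgeR) and Atp1b3 -0.38 (adjusted p = 0.107, edgeR), and these 3 lost their calls. In YTHDF2 RIP no member kept a call. In YTHDF3 RIP Atp2a2 alone did, at 0.95 ± 0.30 (adjusted p = 0.0326, edgeR). Taking out the trend thus left SERCA2 mRNA called enriched in 2 of the 3 RIPs and PMCA2 mRNA in 1. Of all genes tested, this fit called 22.3% enriched and 24.3% depleted in YTHDF1 RIP. The shares were 12.55% and 16.7% in YTHDF2 RIP and 15.9% and 16.3% in YTHDF3 RIP.

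**Figure D5:**
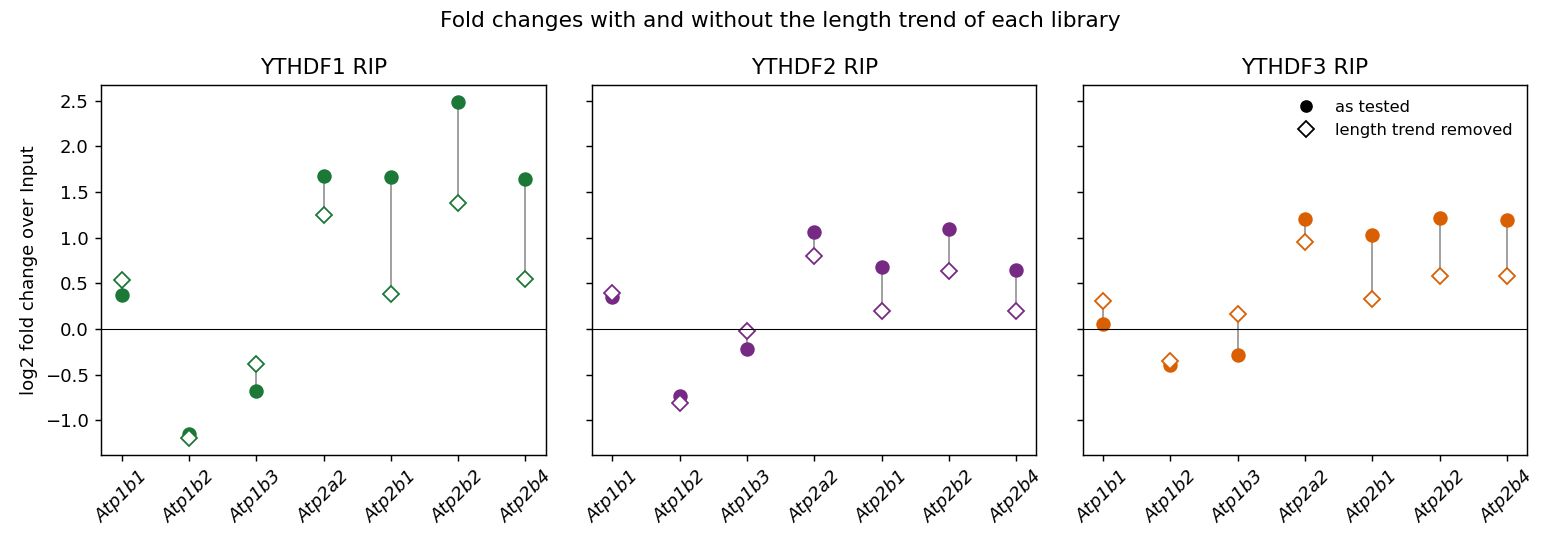
Log2 fold change over Input of each member as tested (filled circles) and after the length trend of each library was removed (open diamonds), in 1 panel for each RIP. Atp2b1 moves most, from 1.67 to 0.38 in YTHDF1 RIP, while Atp1b2 stays near -1.14 and -1.19.

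The RIPs were compared with each other to ask whether a reader protein held more of a pump mRNA than another, calling a difference at 2-fold or more. Between YTHDF1 and YTHDF2 RIP, Atp2b2 was the only member called, higher in YTHDF1 RIP by 1.39 ± 0.45 (adjusted p = 0.0415, edgeR), with no overlap of the libraries. Of all genes, 11.4% were called higher and 6.1% lower in YTHDF1 RIP. The call was lost when any of 7 libraries was left out (Input replicate 2, YTHDF1 RIP replicate 1 or 3, any YTHDF2 RIP replicate, or YTHDF3 RIP replicate 2), with changes between 0.97 and 1.62. With the replicate number as a block it missed the threshold in the 4-group fit (adjusted p = 0.0516, edgeR) and met it with only these 2 groups (1.27, adjusted p = 0.00726, edgeR). It was also lost with library totals alone as the scaling (0.94, adjusted p = 0.102, edgeR) and with the length trend removed (0.74, adjusted p = 0.216, edgeR). Atp2b1 was higher in YTHDF1 RIP by 0.99 ± 0.22 (adjusted p = 0.00547, edgeR), also with no overlap, and fell just short of 2-fold. With the replicate block in the 4-group fit it passed, at 1.001 (adjusted p = 0.0135, edgeR), so that fit called Atp2b1 in place of Atp2b2. It also passed without YTHDF1 RIP replicate 1, YTHDF2 RIP replicate 1 or YTHDF2 RIP replicate 2, at 1.02 to 1.17. Atp2b4 had 0.99 ± 0.44 (adjusted p = 0.128, edgeR) and Atp2a2 0.61 ± 0.31 (adjusted p = 0.171, edgeR), both with overlapping libraries. The beta subunits differed by 0.02, -0.41 and -0.47 and none was called.

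Between YTHDF1 and YTHDF3 RIP no member was called, where 10.8% of genes were higher and 3.63% lower in YTHDF1 RIP. At an unadjusted p under 0.05 there were 3 members in edgeR, Atp2b1, Atp2b2 and Atp1b3, but the share of all genes under it was not counted. DESeq2 called 1 of the 7, Atp2b2, where it called 10.85% of all genes higher and 4.71% lower. The largest difference was that of Atp2b2, 1.28 ± 0.45 with a 95% interval of 0.28 to 2.27 (adjusted p = 0.0656, edgeR), which passed without YTHDF1 RIP replicate 2 (1.48, adjusted p = 0.0298, edgeR). Atp2b1 was higher in each YTHDF1 library than in any YTHDF3 library, by 0.64 ± 0.21 (adjusted p = 0.0542, edgeR), but had -0.11 when libraries were scaled by their totals alone. Between YTHDF2 and YTHDF3 RIP no member was called either, where 3.95% of genes were higher and 1.16% lower in YTHDF2 RIP. No member reached an unadjusted p under 0.05 there in edgeR. DESeq2 called 0 members, where it called 5.65% of all genes higher and 2.04% lower. The differences ran from -0.54 ± 0.44 for Atp2b4 to 0.29 ± 0.37 for Atp1b1, and the 95% interval of Atp2b2 was -1.09 to 0.86.

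Of 11 genes for partners and regulators of the Na,K-ATPase, 8 were tested. In YTHDF1 RIP 2 were enriched and 5 depleted, and in YTHDF2 and YTHDF3 RIP none was enriched and 5 and 6 were depleted. Of all genes, 27.2%, 15.7% and 16.4% were enriched and 25.8%, 19% and 23% depleted in YTHDF1, YTHDF2 and YTHDF3 RIP. The median log2 fold changes of the 8 genes were -1.56, -1.52 and -1.97. With the length trend removed 5, 4 and 4 were called depleted and 1, 0 and 0 enriched. That fit called 24.3%, 16.7% and 16.3% of all genes depleted and 22.3%, 12.55% and 15.9% enriched. Fxyd6, a small regulatory subunit of the pump, fell from 99.9 CPM in Input to 32.6, 31.7 and 28.5 CPM in the RIPs, by log2 fold changes of -1.61 ± 0.26 (adjusted p = 0.000376, edgeR), -1.66 ± 0.26 (adjusted p = 0.000886, edgeR) and -1.81 ± 0.26 (adjusted p = 0.000279, edgeR). Nkain1, which encodes a membrane protein that interacts with the Na,K-ATPase, fell from 34.9 CPM to 12.2, 11.3 and 12.8 CPM, by -1.52, -1.62 and -1.44, and was called in each. The enriched genes in YTHDF1 RIP were Nkain3 (1.75 ± 0.40, adjusted p = 0.00357, edgeR) and Nkain2 (0.78 ± 0.23, adjusted p = 0.0147, edgeR). The YTHDF1 libraries of Nkain3 overlapped Input, and in YTHDF2 RIP it was depleted, at -1.54 ± 0.41 (adjusted p = 0.0132, edgeR).

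Of 9 genes for other calcium ATPases and partners of calcium pumps, 4 were tested. Basigin (Bsg), a glycoprotein that associates with plasma membrane calcium pumps, was depleted in each RIP. It had 308, 265 and 247 CPM in Input and 52.2, 73.7 and 71.5 in YTHDF1 RIP, a change of -2.05 ± 0.27 (adjusted p = 0.000105, edgeR), and changed by -1.73 ± 0.27 (adjusted p = 0.000839, edgeR) and -2.43 ± 0.28 (adjusted p = 7.77e-05, edgeR) in YTHDF2 and YTHDF3 RIP. Neuroplastin (Nptn), a related partner, was depleted in YTHDF2 RIP, at -0.84 ± 0.30 (adjusted p = 0.0497, edgeR), and had -0.21 and -0.06 in YTHDF1 and YTHDF3 RIP, where it was not called. Atp2b3, the remaining plasma membrane pump gene, had 0.93 ± 0.42 in YTHDF1 RIP (adjusted p = 0.0817, edgeR), 0.35 in YTHDF2 RIP and 0.69 in YTHDF3 RIP. Atp2c1, a calcium pump of the Golgi, had 0.36, 0.31 and 0.33. Neither was called.

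The sodium-calcium exchangers remove calcium with the sodium gradient that the Na,K-ATPase builds. Of 9 listed, 7 were tested, and 3 were enriched in YTHDF1 RIP, 0 in YTHDF2 RIP and 1 in YTHDF3 RIP, with none depleted. Of all genes, 27.2%, 15.7% and 16.4% were enriched and 25.8%, 19% and 23% depleted. In YTHDF2 RIP 0 had an unadjusted p under 0.05 in edgeR and DESeq2 called 0. Slc8a1, the exchanger NCX1, had 539, 428 and 366 CPM in Input and 2106, 5284 and 6131 CPM in YTHDF1 RIP, a change of 3.34 ± 0.38 (adjusted p = 3.91e-05, edgeR), against -0.36 in YTHDF2 RIP and 0.49 in YTHDF3 RIP, neither called. It was higher in YTHDF1 RIP than in YTHDF2 RIP by 3.70 ± 0.38 (adjusted p = 6.67e-05, edgeR). Slc8a2, a neuronal exchanger, had 1.68 ± 0.37 in YTHDF1 RIP (adjusted p = 0.00255, edgeR), and 0.71 and 0.74 in the others.

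The 11 genes of calcium release from the endoplasmic reticulum and of store-operated entry, the processes that SERCA2 opposes or refills after, were all tested. Of these 7 were enriched in YTHDF1 RIP, 4 in YTHDF2 RIP and 4 in YTHDF3 RIP, with none depleted. Of all genes, 27.2%, 15.7% and 16.4% were enriched and 25.8%, 19% and 23% depleted. The median log2 fold changes of the 11 genes were 1.51, 0.97 and 0.70. With the length trend removed 1 was called enriched in each RIP, and 2 were depleted in YTHDF1 RIP. That fit called 22.3%, 12.55% and 15.9% of all genes enriched, and 24.3% depleted in YTHDF1 RIP. Ryr2, a ryanodine receptor that releases calcium, had 221, 202 and 95.7 CPM in Input and 874, 408 and 1154 in YTHDF1 RIP, a change of 2.23 ± 0.47 (adjusted p = 0.00209, edgeR). In YTHDF2 and YTHDF3 RIP it had 1.15 (adjusted p = 0.0709, edgeR) and 0.86 (adjusted p = 0.157, edgeR) and was not called. Stim2, a sensor of the calcium store, rose in each RIP, by 1.55 ± 0.25 (adjusted p = 0.000353, edgeR), 0.97 ± 0.25 (adjusted p = 0.0107, edgeR) and 0.91 ± 0.24 (adjusted p = 0.0115, edgeR).

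Across the 12 libraries the calcium pumps varied together. Pearson's r of log2 CPM, a description over libraries that share groups and inputs, was 0.95 between Atp2a2 and Atp2b2, 0.94 between Atp2a2 and Atp2b4 and 0.94 between Atp2b2 and Atp2b4, and from 0.73 to 0.85 for the pairs with Atp2b1. Atp1b3 ran against the pumps, with r from -0.87 to -0.71. Atp1b1 was between, with r from 0.34 to 0.72 to the pumps and -0.36 and -0.18 to the other beta subunits. Of 9930 protein-coding genes, the most like Atp2a2 were Mia3 (r = 0.990), Ltn1 (r = 0.986) and Atg2b (r = 0.983). The most like Atp1b1 were Zfp382 (r = 0.940), Arhgap26 (r = 0.932) and Ypel2 (r = 0.929).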

How the data were processed

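Sequencing libraries were made from 9 ng of RNA with a stranded total RNA kit. Per the file headers and the submitters' processing notes, the authors removed duplicates with UMI-tools (1.1.1), trimmed reads with cutadapt (3.4), aligned them to mm10 (GRCm38) with STAR (2.7.7a) and deposited unnormalised counts for each Ensembl release 97 gene, made with featureCounts (2.0.1). Counting used the strand and counted reads in every overlapping gene and at every alignment, so genes with copies share reads. The deposited tables of the authors' own RIP and Input comparisons (fold changes and p-values) were used only for gene names and biotypes.

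Genes whose normalized counts averaged 10 or more were kept. The 12 libraries were fitted as 4 groups with TMM normalisation and edgeR (4.0.16, R 4.3.3) quasi-likelihood tests, with Benjamini-Hochberg adjustment. Scripts were tested on simulated data. CPM used TMM-scaled library sizes, and log2 CPM for correlations added a prior count of 2. Alternatives were DESeq2 (1.42.0), other scalings and filters, removal of a loess trend with length (span 0.3), a replicate block, fits of 2 groups, and leaving out each library. Exonic lengths and gene positions are those of the count table. Transcript sequences came from GENCODE M21 on the same build, by gene identifier, and all 7 members matched. Only the 6 overlapping bases of Atp2b4 and Mir6903 lie on the same strand among overlaps of member exons.

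The methods say that the 3 RIPs of a replicate and its input came from the same pooled lysate. Same-numbered libraries deviated together in every pair for YTHDF3 RIP and Input, and not for the other RIPs against Input (correlations -0.34 to 0.19). Between YTHDF1 and YTHDF2 RIP the correlations were 0.03, 0.56 and 0.36 in replicates 1, 2 and 3. P-values of the main fit measure the spread between the libraries of a group, all from these cultures. That fit does not pair libraries of the same lysate.

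The members and gene lists were chosen with earlier results of these data known. All 7 members are named in each comparison. One of the related lists is not reported here. From each of the others the 2 genes with the highest mean CPM per kb are named, and all genes of a list with 5 or fewer tested. Genes of like pattern were the 3 with the highest correlation among protein-coding genes whose normalized counts averaged at least 100. The Nkain2 and Nkain3 values were chosen after they were seen.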

Additional observations from a re-analysis of the deposited data

Results flagged for a closer look

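Atp2b2 differed between the YTHDF1 and YTHDF2 RIPs in its enrichment over the shared Input. The difference itself, tested between the RIPs, was a log2 fold change of 1.39 ± 0.45 (adjusted p = 0.0415, edgeR), with YTHDF1 libraries at 1403, 714 and 2140 CPM and YTHDF2 libraries at 590, 332 and 702 CPM, higher in 3 of 3 libraries. Over the alternatives its adjusted p ran from 0.000186 without a filter to 0.216 with the length trend removed.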

How the results depend on the processing

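The calcium pumps minus beta subunits moved most when the length trend was removed, to 1.24, 0.60 and 0.57 in YTHDF1, YTHDF2 and YTHDF3 RIP, and to 1.24, 0.60 and 0.59 with a replicate block as well. Of the 7 members, 6 were called in YTHDF1 RIP against Input, 3 with the length trend removed (2 enriched, 1 depleted), 3 with the block added, 5 without a filter and 4 with the block in a fit of only the 2 groups. Of all genes, 27.2% were enriched and 25.8% depleted in the main fit. These shares were 22.3% and 24.3% with the trend removed and 21.55% and 24.0% with the block added. They were 10.5% and 10.3% of 44478 genes without a filter, and 14.0% and 17.7% with the block in the 2-group fit. In YTHDF2 RIP 2 members were called, 3 without a filter (1 of them depleted), 3 with DESeq2, 3 with only the 2 groups, 1 with TMM before the filter, 1 with the replicate block, 1 with the block in a fit of only the 2 groups, 0 with the length trend removed and 1 (Atp1b2, depleted) with both. Of all genes, 15.7% were enriched and 19% depleted in the main fit. These shares were 4.58% and 8.20% without a filter, 17.2% and 21.3% with DESeq2, and 18.1% and 21.7% with only the 2 groups. They were 12.1% and 20.6% with TMM before the filter, 15.4% and 18.2% with the block, and 11.7% and 16.4% with the block in the 2-group fit. With the length trend removed they were 12.55% and 16.7%, and with both 12.5% and 16.0%. In YTHDF3 RIP 2 were called, 4 with DESeq2 size factors, library size alone, TMM before the filter, no filter, a minimum mean of 50, DESeq2 or only the 2 groups, 5 with the block in the latter, 2 with the replicate block in the 4-group fit, and 1 with the length trend removed, with or without the block. Between YTHDF1 and YTHDF2 RIP 1 member was called, 2 with TMM before the filter, 3 without a filter, and 0 with library size alone, only the 2 groups, or the length trend removed with or without the block. Of all genes, 11.4% were higher and 6.1% lower in the main fit. These shares were 12.2% and 5.75% with TMM before the filter, and 5.40% and 2.86% without a filter. They were 6.24% and 16.3% with library size alone, 8.94% and 5.17% with only the 2 groups, and 9.36% and 7.11% with the length trend removed. Between YTHDF1 and YTHDF3 RIP 0 members were called, 1 without a filter, 1 with DESeq2, and 2 (Atp1b2 and Atp1b3, lower) with library size alone. Of all genes, 10.8% were higher and 3.63% lower in the main fit. These shares were 4.92% and 2.64% without a filter, 10.85% and 4.71% with DESeq2, and 4.48% and 20.1% with library size alone. Leaving out single libraries gave 5 to 6, 0 to 3 and 2 to 4 member calls against Input, and 0 to 1 and 0 to 1 between YTHDF1 RIP and the other RIPs. Of the 17126 genes tested, 7725 to 9698, 4368 to 6929 and 5157 to 7748 were then called against Input. Between YTHDF1 RIP and the other RIPs 2402 to 3873 and 1717 to 2703 were called. Library size alone shifted the median of all genes by -0.40 in YTHDF1 RIP, 0.33 in YTHDF3 RIP, -0.73 between them and -0.48 between YTHDF1 and YTHDF2 RIP, and the share of higher calls from 51.4% to 33.2%, 41.7% to 61.4%, 74.95% to 18.2% and 65.1% to 27.6%. The calcium pumps stayed above Input in every RIP under each alternative.

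Signs changed for main-fit values near 0, such as 0.02 for Atp1b1 between YTHDF1 and YTHDF2 RIP, and for larger ones. With library size alone Atp1b1 was -0.046 in YTHDF1 RIP against Input, and -0.45 and -0.41 in YTHDF1 RIP against YTHDF2 and YTHDF3 RIP. In the latter comparison Atp2a2 was -0.26, Atp2b1 -0.11 and Atp2b4 -0.27, where the main fit gave 0.46, 0.64 and 0.45. Atp1b1 between YTHDF1 and YTHDF2 RIP was -0.095 with a minimum of 50, -0.0054 with DESeq2, -0.033 with 2 groups and -0.036 with the block as well. Atp1b3 against Input in YTHDF3 RIP was 0.044 with library size alone, 0.17 with the length trend removed and 0.17 with the block added. Atp1b3 between YTHDF2 and YTHDF3 RIP was -0.0041 with DESeq2 size factors, -0.18 with library size alone, -0.16 with TMM before the filter, -0.16 without a filter, -0.19 with the length trend removed, -0.19 with the block added, -0.048 with 2 groups and -0.047 with a block in that fit. With the length trend removed, alone and with the block, Atp2b2 between YTHDF2 and YTHDF3 RIP was 0.054 and 0.043, and Atp2b4 between YTHDF1 and YTHDF3 RIP was -0.028 and -0.055. The cause of these shifts was not tested.

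Without single libraries, Atp1b1 ran from -0.33 to 0.26 between YTHDF1 and YTHDF2 RIP, from -0.038 to 0.57 between YTHDF1 and YTHDF3 RIP and from -0.20 to 0.30 in YTHDF3 RIP against Input. Between YTHDF2 and YTHDF3 RIP, Atp1b3 ran from -0.00095 to 0.14, Atp2a2 from -0.37 to 0.031 and Atp2b2 from -0.38 to 0.15. Atp2b4 between YTHDF1 and YTHDF3 RIP ran from -0.063 to 0.62.

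With the replicate block in a fit of only the 2 groups, the genes called against Input went from 9076 to 5426 in YTHDF1 RIP and from 6757 to 11720 in YTHDF3 RIP. Between YTHDF1 and YTHDF3 RIP they went from 2479 to 1535 with 2 groups, 419 with the block and 4207 with library size alone, and between YTHDF2 and YTHDF3 RIP from 874 to 1313 with 2 groups, 1317 with DESeq2, 1812 without a filter and 393 with the block, and to between 179 and 1315 without single libraries.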
